A study of Mus musculus with 4 samples.

Results

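The insulin-like growth factor (IGF) genes described here are 9 members chosen by name from 49315 genes in the count table of mouse lung type 2 innate lymphoid cells (ILC2s). They comprise the ligands *Igf1* and *Igf2*, the receptor *Igf1r*, and the 6 binding proteins *Igfbp2* to *Igfbp7*. Reads were counted on 37499 genes in at least 1 library, and 14840 genes with a scaled read count (CPM) of at least 1 in some library were compared. All 9 members had reads in every library and all 9 were among the compared genes.

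The study asked how ILC2s take part in the lung fibrosis of Hermansky-Pudlak syndrome, using WT C57BL/6 mice and Hps1-/- mice treated with PBS or bleomycin, a drug that injures the lung. The sort took cells that carried Thy1.2, ICOS and T1/ST2 and lacked the lineage markers CD3, CD11b, B220, Ly76, Ly6G and Ly6C. This gate would remove T cells, B cells, monocytes and neutrophils, the methods state a high purity for it, and all 4 groups shared a culture step with IL-2 ahead of RNA extraction. The groups were WT mice given PBS (PBS-WT), Hps1-/- mice given PBS (PBS-HPS1), WT mice given bleomycin (BLEO-WT) and Hps1-/- mice given bleomycin (BLEO-HPS1), and sets of 4 values below follow this order. Each group had 1 library, made from 22405, 38873, 84166 and 128647 cells. The methods describe both intratracheal and intraperitoneal bleomycin without stating which was given before this sequencing, and neither the number of mice per library nor their age could be tied to the libraries. With 1 library per group no condition could be tested, no p-value is given, and a gene is called higher or lower here when 2 libraries differed at least 2-fold. The 95% intervals cover counting error only, and the spread between mice is unknown.

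IGF1 and IGF2 are secreted growth factors that signal through the IGF1 receptor, a tyrosine kinase that recruits insulin receptor substrate proteins and activates the PI3K-AKT-mTOR relay. The binding proteins hold IGFs outside the cell and can lengthen their life, block their access to the receptor or release them after cleavage by proteases. In the lung, mesenchymal cells and macrophages are known sources of these proteins.

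Total counts ranged from 72513619 to 87638154 reads per library, and the floor of 3 reads corresponded to 0.0303 to 0.0475 CPM. *Hps1*, the gene targeted in the mutant mice, had 38.3 CPM in WT and 16.6 in Hps1-/- with PBS, and 48.4 and 21.3 with bleomycin, so reads on the gene were fewer in both Hps1-/- libraries but not absent. None of the 13 ILC2 marker genes examined was at 0 reads in any library, and their summed level was 922, 819, 1170.3 and 1194 CPM. Within this sum *Arg1* had 8.34, 4.59, 387 and 257 CPM and *Thy1* had 306, 206, 224 and 551. *Rora* had 63.9, 78.4, 25.2 and 13.2 CPM, *Il7r* 179.6, 205, 149 and 76.9, and *Icos* 79.9, 77.5, 51.4 and 32.1. Of the 12 markers compared, 1 was at least 2-fold higher and 1 lower with bleomycin in WT. In Hps1-/- 3 were higher and 3 lower. *Gata3*, a transcription factor gene whose product the paper combined with CD90 and lineage markers to find ILC2s, had 38.4, 39.1, 25.1 and 26.9 CPM. Markers of other lung cells were also present, among them those of types that the gate would remove. For 10 T cell genes the sums were 1068, 844, 932 and 1718 CPM, and for 10 neutrophil genes 1677, 464, 884 and 466. For 8 B and plasma cell genes they were 192, 163, 135 and 383 CPM. Endothelial genes, 12 in number, summed to 1074, 1029, 1208 and 1668 CPM, and 12 alveolar epithelial genes to 1405, 1023, 870.2 and 608. The 18 macrophage and monocyte genes summed to 16575, 11918, 26163 and 23769.7 CPM. The 14 fibroblast genes summed to 661, 901, 1379 and 5235 CPM, highest in BLEO-HPS1. In RNA from a bulk sample, fewer cells of a type and less RNA per cell cannot be told apart.

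Binding protein mRNA far outweighed ligand mRNA in all 4 libraries. In TPM, which scales the reads first by gene length and then to a common total so that genes within a library can be compared, the 6 binding proteins summed to 282, 385, 406 and 869.7. The ligands *Igf1* and *Igf2* together reached 4.84, 5.01, 7.65 and 4.56 TPM. TPM lacks the scaling between libraries that CPM has, so the order of libraries can differ between the 2 measures. The binding proteins summed to 227, 245, 438 and 1034 CPM. *Igf1* had 9.35, 6.31, 25.2 and 15.8 CPM, so by CPM it was higher in BLEO-HPS1 than in both PBS libraries. The ratio of binding protein TPM to ligand TPM was 58.2, 76.7, 53.1 and 191. In TPM, BLEO-HPS1 thus stood above the other 3 libraries in binding proteins but not in ligands. These TPM values were not corrected for transcript GC content and length, to which the ratios between libraries were related (below). After that correction the log2 ratio of BLEO-HPS1 to PBS-HPS1 was 3.39 for *Igf1* and -0.28 for *Igf2*. It was 2.12 for *Igfbp4*, 1.38 for *Igfbp6* and 0.89 for *Igfbp7*.

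*Igfbp7*, which encodes a secreted binding protein of low IGF affinity found in vessel walls and matrix, led the members with 125 TPM in PBS-WT, 169 in PBS-HPS1 and 362 in BLEO-HPS1. In BLEO-WT it came after *Igfbp4*, whose product mainly restrains IGF action, with 160.1 against 171 TPM and a ratio of 1.07 (95% interval 1.04 to 1.10). *Igfbp6*, whose product prefers IGF2 over IGF1, came after them in every library with 33.5, 47.8, 41.7 and 151 TPM. These 3 genes made up 83.9% of the binding protein TPM in PBS-HPS1, the lowest share, and 95% in BLEO-HPS1, the highest.

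The remaining members ranked below them at every condition. *Igfbp5*, a matrix-associated binding protein, had 12.1 to 32.6 TPM, *Igfbp2* 10.2 to 18.5 and *Igfbp3*, the main carrier of IGFs in serum, 4.63 to 12.5. *Igf1r* ranged from 2.53 to 11.0 TPM and *Igf2* was the lowest member in all 4 libraries. Among neighbours in this order only *Igf1* and *Igf2* in PBS-HPS1 were not separated by counting error, with 2.58 and 2.43 TPM and a ratio of 1.06 (95% interval 0.927 to 1.21). Scaling by the longest annotated transcript instead of all exons put *Igfbp2* above *Igfbp5* in BLEO-HPS1, at 19.8 against 15.1 TPM.

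**Figure D1:**
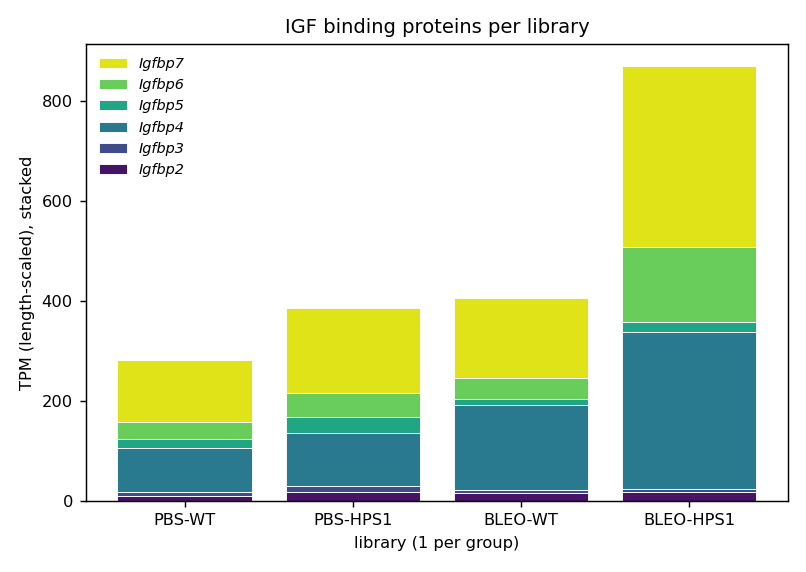
Stacked bars of TPM, the length-scaled level, for the 6 IGF binding protein genes in the 4 libraries, 1 bar per library with no error bar because each group had 1 library. The stack reaches 869.7 TPM in BLEO-HPS1 and 282 to 406 TPM in the other libraries, and *Igfbp7*, *Igfbp4* and *Igfbp6* fill most of every bar. TPM lacks the scaling between libraries that CPM has, and in CPM the sums were 227, 245, 438 and 1034.

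The promoters of the 3 leading binding protein genes are shown because these genes were higher together in BLEO-HPS1, and that of *Igf1r* because its level was lowest there. RefSeq promoter entries on GRCm38.p6 matched 9 of 9 members, with 13 promoters in all. Each run below is the 250 bases before the RefSeq start, 5′ to 3′ on the gene's strand, with matches to the TATA box TATAAA, the CCAAT box CCAAT and the GC box GGGCGG on either strand in capitals. The positions are chr11:99040994-99041243 on the plus strand for *Igfbp4*, chr15:102143936-102144185 on the plus strand for *Igfbp6*, chr5:77408046-77408295 on the minus strand for *Igfbp7* and chr7:67952007-67952256 on the plus strand for *Igf1r*.
Igfbp4: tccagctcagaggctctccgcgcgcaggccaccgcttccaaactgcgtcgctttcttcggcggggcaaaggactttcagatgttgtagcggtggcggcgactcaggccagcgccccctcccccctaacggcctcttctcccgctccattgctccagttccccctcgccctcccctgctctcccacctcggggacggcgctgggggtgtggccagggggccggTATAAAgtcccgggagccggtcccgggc
Igfbp6: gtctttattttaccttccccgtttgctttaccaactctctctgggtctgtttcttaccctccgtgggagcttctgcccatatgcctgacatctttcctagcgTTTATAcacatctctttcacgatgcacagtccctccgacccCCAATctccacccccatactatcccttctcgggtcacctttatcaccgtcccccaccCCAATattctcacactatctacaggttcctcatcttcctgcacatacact
Igfbp7: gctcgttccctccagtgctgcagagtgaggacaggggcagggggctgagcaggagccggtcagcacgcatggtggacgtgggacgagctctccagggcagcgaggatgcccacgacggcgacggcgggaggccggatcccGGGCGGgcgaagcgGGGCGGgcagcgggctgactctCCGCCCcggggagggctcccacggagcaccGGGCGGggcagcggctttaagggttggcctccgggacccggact
Igf1r: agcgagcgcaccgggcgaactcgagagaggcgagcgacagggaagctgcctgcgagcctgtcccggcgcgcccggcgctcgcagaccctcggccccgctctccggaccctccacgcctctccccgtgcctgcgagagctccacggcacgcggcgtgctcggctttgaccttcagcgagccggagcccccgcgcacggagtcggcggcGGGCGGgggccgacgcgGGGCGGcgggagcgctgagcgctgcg

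The 3 binding protein promoters did not share a motif set. *Igfbp4* held 1 TATA box, beginning 28 bases before the start. *Igfbp6* held 2 CCAAT boxes, beginning 107 and 50 bases before the start, and 1 TATA box on the reverse strand 148 bases before it. *Igfbp7* held 4 GC boxes and no TATA or CCAAT box, and *Igf1r* held 2 GC boxes. In the 300-base windows of all 32851 promoters, which also take in 50 bases after the start, a TATA box was found in 13.6%, a CCAAT box in 37.4% and a GC box in 35.7%. The windows of *Igfbp4*, *Igfbp7* and *Igf1r* had a GC content of 71.3%, 73.3% and 76%, and that of *Igfbp6* had 49.7%, against a median of 52.7% over all promoters. The GENCODE start of *Igfbp6* lies 176 bases downstream of the RefSeq start used for its window and that of *Igf1r* 570 bases downstream, whereas those of *Igfbp4* and *Igfbp7* lie within 4 bases. A letter match is a description of the sequence and not evidence that a factor binds.

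The ligands differed from each other across the conditions. *Igf1* (ENSMUSG00000020053, chromosome 10, 87858265 to 87937042, plus strand, GRCm38) encodes the main circulating and tissue growth factor of the pair. It had 9.35 CPM in WT and 6.31 in Hps1-/- with PBS, and 25.2 and 15.8 with bleomycin. Both bleomycin libraries were above both PBS libraries, and within each treatment the WT library was the higher.

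*Igf1* was 2.69-fold higher in BLEO-WT than in PBS-WT (log2 ratio 1.43, 95% interval 1.31 to 1.56) and 2.49-fold higher in BLEO-HPS1 than in PBS-HPS1 (log2 ratio 1.32, 1.17 to 1.47). Between genotypes the Hps1-/- library was lower, by log2 ratios of -0.57 with PBS (-0.72 to -0.41) and -0.68 with bleomycin (-0.79 to -0.57), both within 2-fold. The 2 bleomycin log2 ratios differed by -0.11 (-0.30 to 0.08), an interval that includes 0. The longest *Igf1* transcript has 7052 bases and 38.0% GC, against medians of 3226 bases and 49.8% over the compared genes, and correction of the ratios for GC content and length moved the second of these genotype ratios to 0.21. The correction took the bleomycin log2 ratios to 2.34 in WT and 3.39 in Hps1-/- and their difference to 1.05, whereas total counts alone gave 0.68 in Hps1-/-, below the threshold. None of the 18 macrophage and monocyte markers was at 0 reads, and with bleomycin 9 were at least 2-fold higher and 1 lower in WT, and 11 higher and 3 lower in Hps1-/-. Between genotypes 0 were higher and 2 lower with PBS, and 1 was higher and 5 lower with bleomycin. The sort gated out CD11b+ cells, and the part of these markers in the *Igf1* values was not tested.

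*Igf2* (ENSMUSG00000048583, chromosome 7, 142650766 to 142666816, minus strand), a fetal growth factor expressed from the paternal allele, was the member with the fewest reads in every library. It had 3.25 CPM in WT and 3.44 in Hps1-/- with PBS, and 2.63 and 3.39 with bleomycin, on 206 to 341 reads. No comparison of *Igf2* reached 2-fold, and its log2 ratios ran from -0.30 (BLEO-WT to PBS-WT, -0.58 to -0.03) to 0.36 (Hps1-/- to WT with bleomycin, 0.08 to 0.65). The share of ligand TPM from *Igf1* was 62.5% in PBS-WT and 51.4% in PBS-HPS1, and 84.7% in BLEO-WT and 72.9% in BLEO-HPS1. Exons of *Igf2* overlap 98 bases of the antisense gene *Igf2os*, which had at most 24 reads, and 3596 exonic bases of *Gm49394* on the same strand, a gene model not analysed here. The strand setting of the counting is not given in the sources used here, so reads in such overlaps cannot be assigned to 1 gene.

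The receptor gene *Igf1r* (ENSMUSG00000005533, chromosome 7, 67952827 to 68233668, plus strand) encodes the tyrosine kinase that binds both ligands. It had 48.4 CPM in WT and 45.7 in Hps1-/- with PBS, and 34.0 and 20.4 with bleomycin. Both bleomycin libraries were below both PBS libraries, and BLEO-HPS1 was the lowest. *Igf1r* was 2.24-fold lower in BLEO-HPS1 than in PBS-HPS1 (log2 ratio -1.17, -1.26 to -1.08) and was within 2-fold in the other comparisons, with log2 ratios of -0.51 (-0.58 to -0.44) in BLEO-WT to PBS-WT and -0.74 (-0.84 to -0.64) for Hps1-/- to WT with bleomycin. Its transcript, at 11409 bases, is the longest of the members, and after correction for GC content and length the log2 ratio of BLEO-HPS1 to PBS-HPS1 was 0.26, which ends the call and turns the direction. The insulin receptor gene *Insr*, which shares ligands and hybrid receptors with *Igf1r*, had 50.4, 59.3, 39.6 and 18.2 CPM, and the TPM ratio of *Igf1r* to *Insr* stayed between 0.631 and 0.915.

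*Igfbp4* (ENSMUSG00000017493, chromosome 11, 99041244 to 99054392, plus strand) had 120.3 CPM in WT and 116 in Hps1-/- with PBS, and 297 and 662 with bleomycin. Both bleomycin libraries were above both PBS libraries, which differed by a log2 ratio of -0.06 (-0.10 to -0.02). *Igfbp4* was 2.47-fold higher in BLEO-WT than in PBS-WT (log2 ratio 1.31, 1.27 to 1.34) and 5.73-fold higher in BLEO-HPS1 than in PBS-HPS1 (2.52, 2.49 to 2.55), while BLEO-HPS1 exceeded BLEO-WT 2.23-fold (1.16, 1.13 to 1.18). After correction for GC content and length the last log2 ratio was 0.87, below the threshold, and the first 2 were 1.18 and 2.12.

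*Igfbp6* (ENSMUSG00000023046, chromosome 15, 102144362 to 102149511, plus strand) had 11.6 CPM in WT and 13.1 in Hps1-/- with PBS, and 18.3 and 80.2 with bleomycin. BLEO-HPS1 stood apart from the 3 others. Its *Igfbp6* level was 4.39-fold that of BLEO-WT (log2 ratio 2.13, 2.05 to 2.22) and 6.09-fold that of PBS-HPS1 (2.61, 2.52 to 2.70), whereas BLEO-WT was 1.57-fold above PBS-WT (0.65, 0.53 to 0.77). The first of these ratios held rank 194 from the top among the 14840 compared genes. The transcript is short, 1112 bases, with 60.7% GC, and the corrected log2 ratios were 1.34 against BLEO-WT and 1.38 against PBS-HPS1, both still past 2-fold.

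*Igfbp7* (ENSMUSG00000036256, chromosome 5, 77349240 to 77408041, minus strand) had 47.2 CPM in WT and 50.5 in Hps1-/- with PBS, and 76.1 and 209.6 with bleomycin. Here too BLEO-HPS1 was the highest library, and BLEO-WT lay between it and the PBS libraries. BLEO-HPS1 had 2.75-fold the *Igfbp7* of BLEO-WT (log2 ratio 1.46, 1.42 to 1.51) and 4.15-fold that of PBS-HPS1 (2.05, 2.01 to 2.10), and the ratio of BLEO-WT to PBS-WT was within 2-fold (0.69, 0.63 to 0.75). The corrected log2 ratios of 0.71 and 0.89 were both below the threshold. An 85-base exon overlap joins *Igfbp7* to *Polr2b* on the other strand, which had at most 5042 reads in a library.

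*Igfbp5* (ENSMUSG00000026185, chromosome 1, 72857932 to 72874884, minus strand) followed the genotype more than the treatment. It had 34.5 CPM in WT and 48.4 in Hps1-/- with PBS, and 28.5 and 57.3 with bleomycin, so both Hps1-/- libraries were above both WT libraries. Hps1-/- exceeded WT by a log2 ratio of 0.49 (0.42 to 0.56) with PBS and by 2.01-fold (0.93 to 1.08 on the log2 scale) with bleomycin, the latter at the 2-fold threshold itself. Scaling by total counts alone gave 0.87 for the latter, below the threshold, and correction for GC content and length gave 1.30.

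*Igfbp2* (ENSMUSG00000039323, chromosome 1, 72824503 to 72852474, plus strand), a carrier that also binds integrins, lies beside *Igfbp5* on the other strand. It had 5.89 CPM in WT and 7.60 in Hps1-/- with PBS, and 12.0 and 16.3 with bleomycin. Both bleomycin libraries were above both PBS libraries, and within a genotype bleomycin exceeded PBS by a log2 ratio of 1.02 (0.86 to 1.19) in WT and 1.10 (0.96 to 1.24) in Hps1-/-. With 62.1% GC in a transcript of 1307 bases, the corrected log2 ratios were 0.76 and -0.06, which ends both calls and turns the direction in Hps1-/-.

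*Igfbp3* (ENSMUSG00000020427, chromosome 11, 7206086 to 7213923, minus strand) had 7.26 CPM in WT and 9.68 in Hps1-/- with PBS, and 5.70 and 8.01 with bleomycin. No comparison of *Igfbp3* reached 2-fold, with log2 ratios between -0.35 and 0.49. Each Hps1-/- library was above the WT library of the same treatment, and each bleomycin library was below the PBS library of the same genotype.

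**Figure D2:**
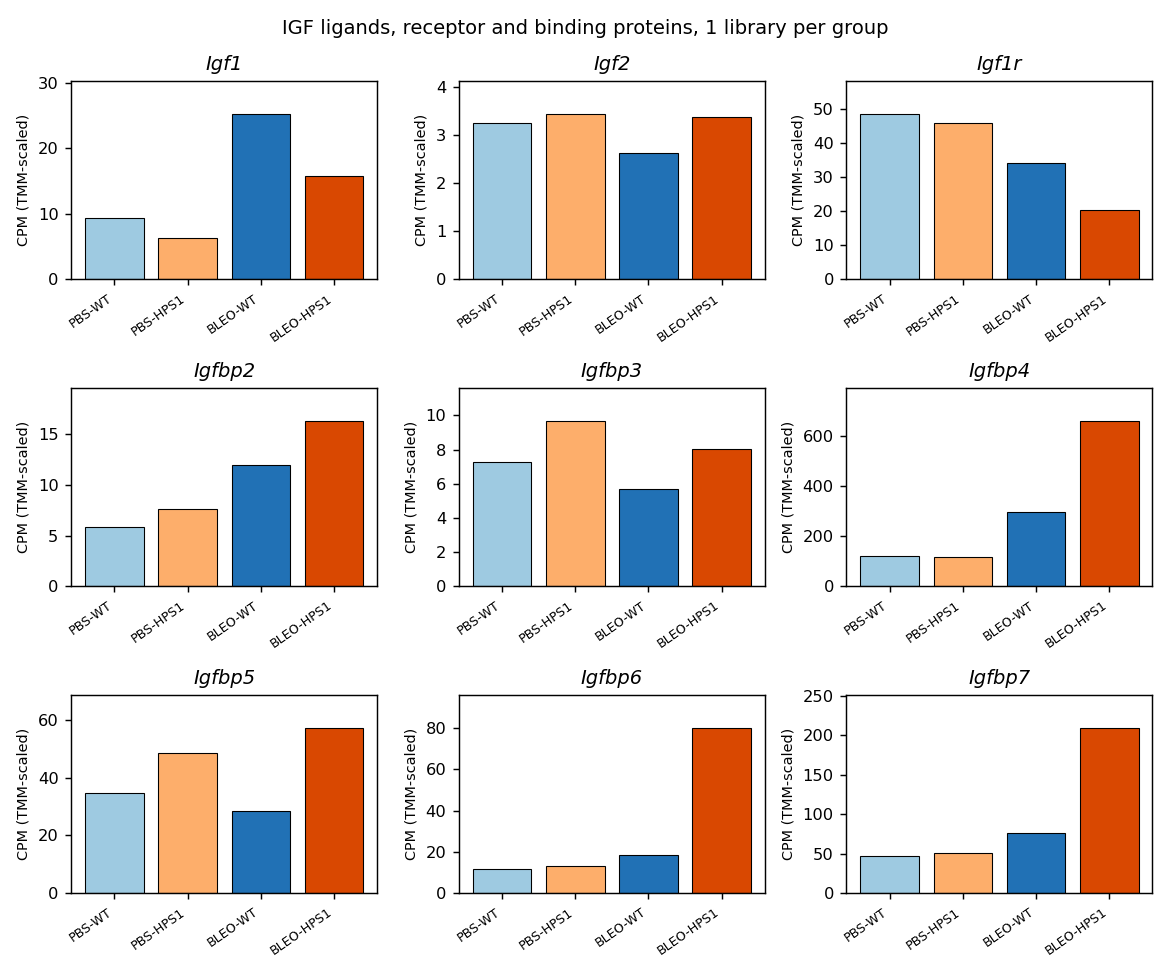
CPM, counts scaled to a common library size with TMM factors, of the 9 members in the 4 libraries, 1 panel per gene with its own axis from 0 and 1 library per bar. *Igfbp4*, *Igfbp6* and *Igfbp7* are highest in BLEO-HPS1, *Igf1* is highest in BLEO-WT and *Igf1r* is lowest in BLEO-HPS1.

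Few genes of any kind differed 2-fold between the PBS libraries. Between PBS-HPS1 and PBS-WT, 0 of 9 members were past 2-fold upward, where 2.16% of the 14840 genes were, and 0 downward, where 3.11% were. The median log2 ratio over the members was 0.10, and over all genes it was -0.19. *Igf1* had the lowest ratio and *Igfbp5* the highest. Scaled by total counts alone, no member passed either, where 4.38% of all genes were higher and 2.02% lower. The median of all genes was then 0.06, and the share of higher genes among all those past 2-fold was 68.4% in place of 41.0%. In this comparison 3 of 14 fibroblast markers were higher and 10 of 10 neutrophil markers lower, and their part in the members' values was not tested.

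After bleomycin, BLEO-HPS1 exceeded BLEO-WT at least 2-fold in 4 of 9 members, namely *Igfbp4*, *Igfbp5*, *Igfbp6* and *Igfbp7*, where it did so in 6.72% of all genes. None was at least 2-fold lower, where 10.3% of all genes were. The median over the members was 0.49, against -0.04 over all genes, and all 6 binding proteins had ratios above 0 (*Igfbp2* was at -0.31 after correction for GC content and length). *Igf1r* was below 0 and *Igf2* above it, with and without that correction. The members past 2-fold were 2 after the correction, *Igfbp5* and *Igfbp6*, where 5.20% of all genes were higher and 4.70% lower. With total counts alone 3 members were higher, where 4.92% of all genes were. The share of higher genes among all past 2-fold was then 24.9% in place of 39.5%.

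In the same comparison 12 of 14 fibroblast markers were at least 2-fold higher, with a median log2 ratio of 2.04, and none of the 14 was at 0 reads in any library. *Col1a1*, a fibrillar collagen gene, had 38.2, 75.1, 169.9 and 982 CPM, and *Dcn*, encoding decorin, had 12.2, 26.0, 24.0 and 111. Of 9 smooth muscle and pericyte markers compared, 5 were at least 2-fold higher. Of 8 B and plasma cell markers 5 were higher and of 10 T cell markers 2 were higher, with 0 lower in both lists. Endothelial markers gave 0 of 12 and mesothelial markers 0 of 5 in either direction, 3 of 12 alveolar epithelial markers were lower, and of 10 neutrophil markers 1 was higher and 4 lower. Of 12 ILC2 markers compared, 2 were higher, *Thy1* and *Klrg1*, and 0 lower. The median log2 ratio of the 12 was -0.41, against -0.04 over all genes, and it was 0.04 after correction for GC content and length. What these cell types contributed to the binding protein values was not tested.

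Between BLEO-WT and PBS-WT, 3 of 9 members were at least 2-fold higher, *Igf1*, *Igfbp2* and *Igfbp4*, where 5.28% of all genes were, and 0 were lower, where 8.22% were. The members' median was 0.65 against 0.09 for all genes. With total counts alone 2 members were higher, where 3.17% of all genes were. The median of all genes was then -0.18, and the share of higher genes among all past 2-fold was 19.1% in place of 39.1%. Fibroblast markers were higher for 5 of 14 genes in this comparison, and of 18 macrophage and monocyte markers 9 were higher and 1 lower. Of 10 neutrophil markers 4 were lower, as were 3 of 12 alveolar epithelial markers. What these cell types contributed was not tested.

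Between BLEO-HPS1 and PBS-HPS1, 5 of 9 members were at least 2-fold higher, *Igf1*, *Igfbp2*, *Igfbp4*, *Igfbp6* and *Igfbp7*, and *Igf1r* was lower. This comparison moved many genes, with 26.2% of all genes higher and 19.6% lower. The members' median was 1.10 and that of all genes 0.25. Scaled by total counts alone, 3 members were higher and 1 lower, where 9.06% of all genes were higher and 34.5% lower. The share of higher genes among all those past 2-fold went from 57.2% to 20.8%, while the median of all genes moved from 0.25 to -0.43. *Igfbp4* (1.88), *Igfbp6* and *Igfbp7* were the 3 members that remained higher under that scaling. Of the 14 fibroblast markers, 12 were higher in this comparison as well, as were 6 of 9 smooth muscle and pericyte, 11 of 18 macrophage and monocyte, 5 of 10 T cell, 4 of 8 B and plasma cell and 4 of 12 endothelial markers. Of the alveolar epithelial markers 7 of 12 were lower, and of 12 ILC2 markers 3 were higher and 3 lower. What these cell types contributed was not tested.

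**Figure D3:**
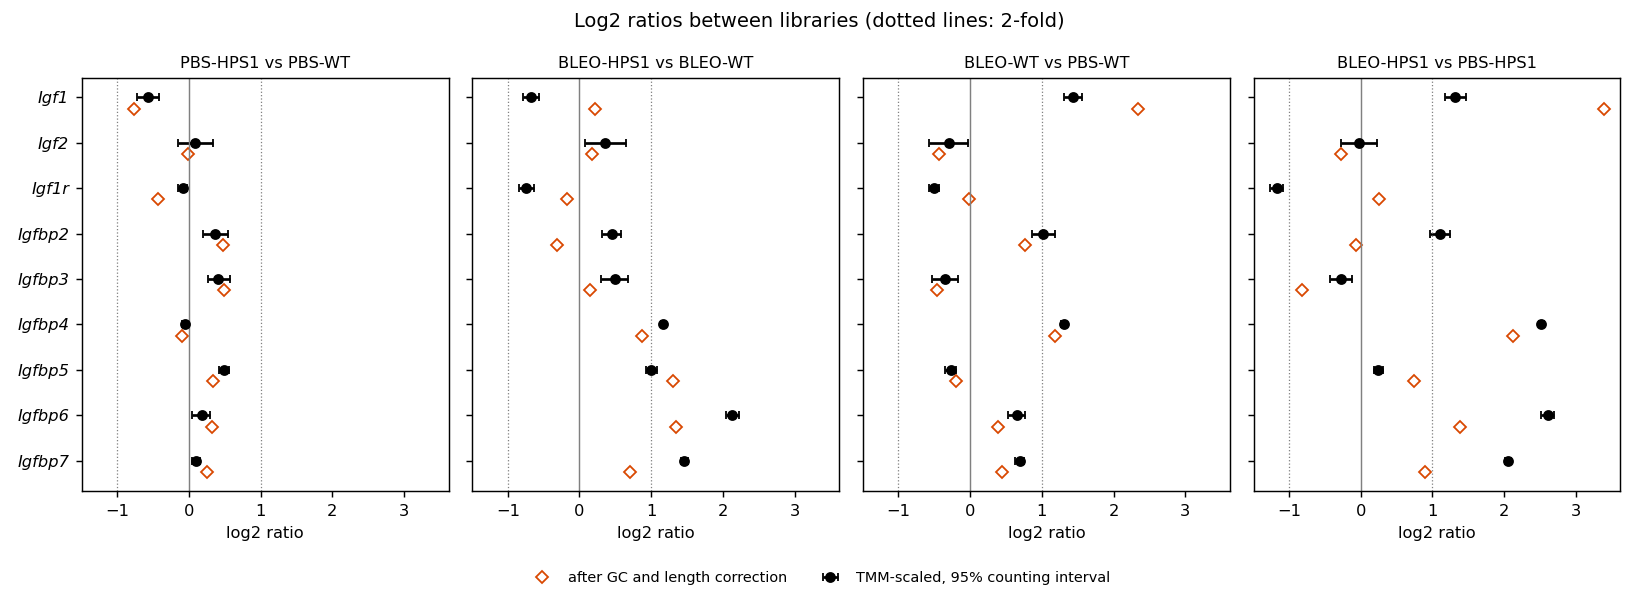
Log2 ratios of the 9 members in 4 comparisons between libraries, as TMM-scaled values with 95% counting intervals (filled circles) and after correction for GC content and length (open diamonds), with dotted lines at 2-fold. Filled circles in BLEO-HPS1 vs BLEO-WT lie past 2-fold for *Igfbp4*, *Igfbp5* (on the line), *Igfbp6* and *Igfbp7*. In BLEO-HPS1 vs PBS-HPS1 the diamonds of *Igf1*, *Igf1r*, *Igfbp2*, *Igfbp6* and *Igfbp7* lie far from their circles.

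The bleomycin log2 ratio of Hps1-/- minus that of WT was 1.96 (1.81 to 2.11) for *Igfbp6*, 1.36 (1.29 to 1.44) for *Igfbp7* and 1.21 (1.17 to 1.26) for *Igfbp4*. These were the 3 of 9 members whose difference reached 2-fold upward, where 16.3% of all genes did, and 0 reached it downward, where 11.2% did. *Igf1r* had -0.66 (-0.77 to -0.54), which turned to 0.27 after correction for GC content and length, and the intervals of *Igf1* and *Igf2* included 0. After the same correction *Igfbp6* was at 0.99, *Igfbp4* at 0.94 and *Igfbp7* at 0.44, none of them past 2-fold, and *Igf1* at 1.05 was past it. Of all genes 10.1% were then past 2-fold upward and 6.31% downward. With total counts alone 1 member was past 2-fold upward, *Igfbp6*, and 1 downward, *Igf1r* at -1.03, and the share of higher genes among all past 2-fold was 23.9% in place of 59.4%. The difference uses all 4 libraries, so it shares them with the comparisons above.

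GC content and length were related to the ratios over the whole library. Across 11133 well expressed genes, Spearman's rho of transcript GC content with the log2 ratio was 0.609 between the bleomycin libraries, 0.485 for BLEO-WT to PBS-WT and 0.602 for BLEO-HPS1 to PBS-HPS1, and -0.0726 for PBS-HPS1 to PBS-WT. With the length of the longest transcript rho was -0.493, -0.256, -0.517 and 0.429 in the same comparisons. Genes are not independent replicates and share these libraries, so the values are descriptions. The members span this range, from *Igf1* at 38.0% GC to *Igfbp6* at 60.7% and *Igfbp2* at 62.1%. The source of this trend was not tested.

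**Figure D4:**
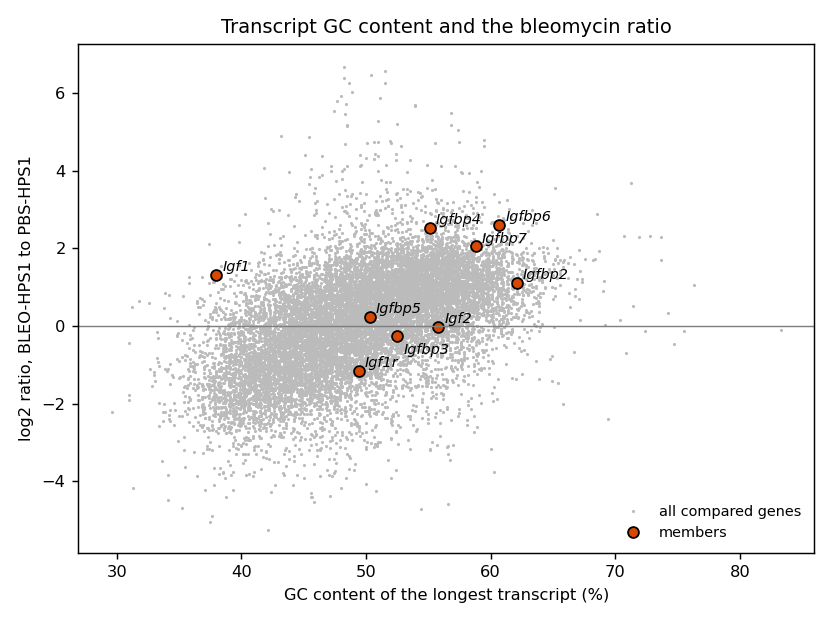
GC content of the longest transcript in percent (x axis) against the log2 ratio of BLEO-HPS1 to PBS-HPS1 (y axis) for all compared genes with annotation (grey) and the 9 members (orange). Ratios of all genes run upward with GC content (rho 0.602), *Igfbp6* and *Igfbp7* lie on the GC-rich side, and *Igf1* at 38.0% GC lies above the cloud around it, with a corrected log2 ratio of 3.39.

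Among 55 other genes of the IGF axis listed as ligands, regulators, receptors and relay genes, 44 were compared, and most of those past 2-fold were lower in BLEO-HPS1. Against BLEO-WT, 2 of 44 were past 2-fold upward and 10 downward, with a median log2 ratio of -0.36, where 6.72% of all genes were past it upward and 10.3% downward. The 2 higher genes were *Htra1*, a secreted protease that cleaves IGF binding proteins, at 4.86, 4.19, 7.40 and 18.0 CPM (log2 ratio 1.28), and *H19*, the imprinted RNA neighbour of *Igf2*, at 2.50, 1.22, 1.48 and 3.31 CPM (1.15). The lower genes were *Insr*, *Jak2*, *Irs2* and 7 of the 19 genes of the PI3K-AKT-mTOR relay, among them the PI3K subunit genes *Pik3ca*, *Pik3cb* and *Pik3r1* and the kinase genes *Pdpk1*, *Gsk3b* and *Rps6kb1*.

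*Irs2*, an adaptor of the insulin and IGF1 receptors, had 165 CPM in WT and 214 in Hps1-/- with PBS, and 341 and 154 with bleomycin, with a log2 ratio of -1.15 between the bleomycin libraries. It was the highest in BLEO-WT. *Jak2*, the kinase of the growth hormone receptor, had 123, 120.0, 105 and 46.6 CPM (-1.18). After correction for GC content and length, 1 of the 44 genes was higher, *Grb10*, and 2 were lower, *Irs2* (-1.22) and *Kazald1*, so none of the 7 relay genes was still past 2-fold. Of all genes 5.20% were then higher and 4.70% lower.

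**Figure D5:**
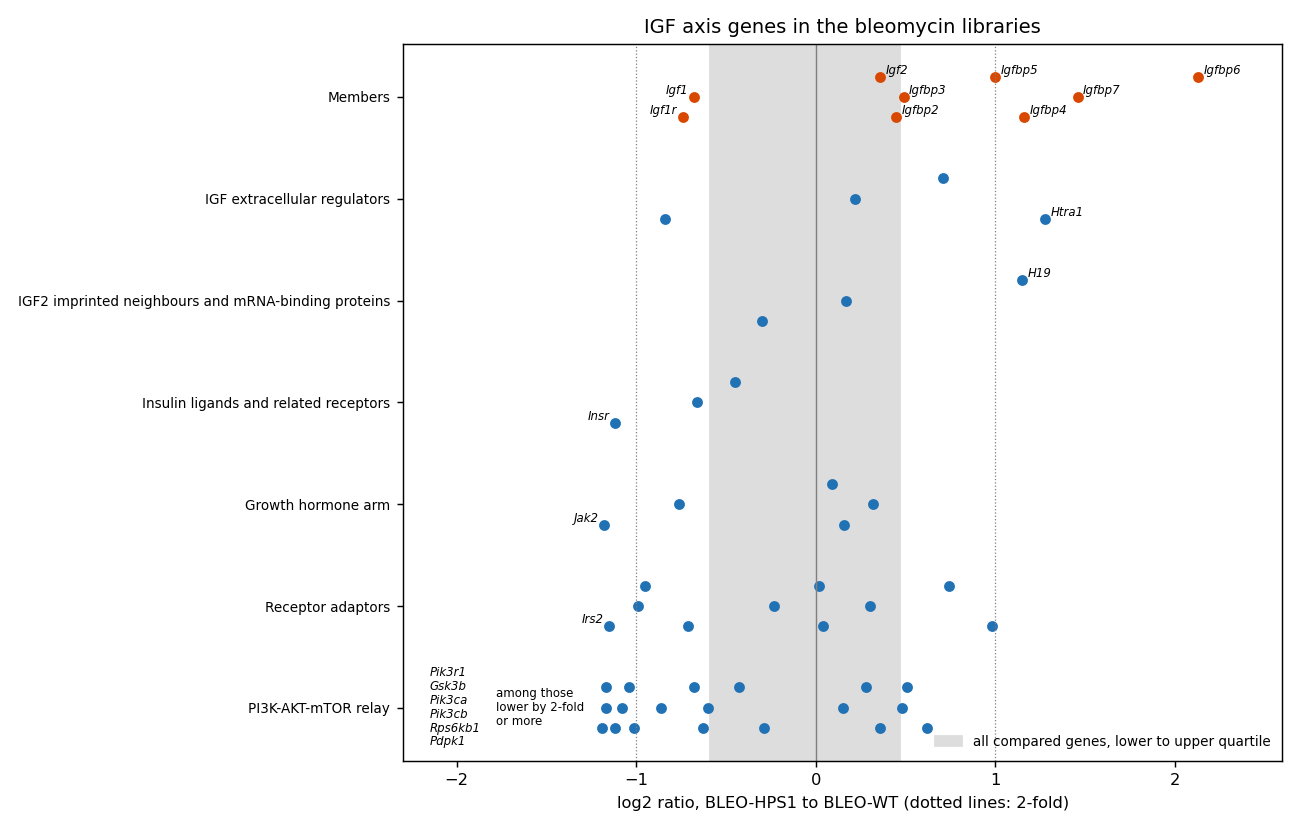
Log2 ratio between the bleomycin libraries, Hps1-/- over WT, for the 9 members (orange) and 44 other IGF axis genes (blue) in their lists, with the range between the quartiles of all compared genes, -0.59 to 0.47, as a grey band and dotted lines at 2-fold. The binding proteins *Igfbp4*, *Igfbp5*, *Igfbp6* and *Igfbp7* with *Htra1* and *H19* lie at or past 2-fold on the right, and *Insr*, *Jak2*, *Irs2* and 7 relay genes on the left.

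The other comparisons gave fewer or mixed calls among these 44 genes. Between the PBS libraries 0 were higher and 1 was lower, *H19*, with a median of -0.11. Between BLEO-WT and PBS-WT 1 was higher, *Irs2*, and 2 were lower, *Igf2bp2* and *Irs3*, with a median of 0.01. Between BLEO-HPS1 and PBS-HPS1 6 were higher and 12 lower, with a median of -0.49, where 26.2% of all genes were higher and 19.6% lower. After correction for GC content and length 6 were higher and 3 lower in that comparison and the median turned to 0.33. Of all genes 17.3% were then higher and 8.86% lower. *Igf2bp2*, encoding an RNA-binding protein that binds *Igf2* mRNA, was lower with bleomycin in both genotypes, at 13.0, 12.0, 2.14 and 1.74 CPM, and its corrected log2 ratios were -2.53 and -2.42.

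Levels of other partners of the members ranged widely. *Igfbp1*, the remaining classical binding protein gene, had 2 reads in PBS-HPS1 and 0 in the 3 other libraries, below the floor of 3 reads. *Igf2r*, which clears IGF2 and sorts lysosomal enzymes, had 51.9, 50.2, 99.9 and 72.9 CPM, with log2 ratios of 0.94 for BLEO-WT to PBS-WT and 0.54 for BLEO-HPS1 to PBS-HPS1, and 1.25 and 1.56 after correction for GC content and length, both then past 2-fold. *Lrp1*, a large endocytic receptor listed with the related receptors, had 1499, 1288, 2764 and 1752 CPM. *Ghr*, the growth hormone receptor, had 8.94, 8.80, 5.59 and 6.25 CPM.

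The members' profiles were compared with those of 10886 other genes by the Euclidean distance between log2 CPM values centred on their mean over the 4 libraries, where 0 means the same pattern. Among the genes closest to *Igfbp6* were *Fkbp10* (0.13) and *Rarres2* (0.31), and those closest to *Igfbp7* were *Loxl3* (0.10), *Efemp2* (0.12) and *Tnfrsf9* (0.17). For *Igfbp4* they included *Mybl2* (0.17) and *Rab34* (0.23). *Igf1* had *Aoah* (0.11), *Ccrl2* (0.12) and *Rab7b* (0.13) as its closest genes, and *Igf1r* had *Rnf20* (0.02), *Pcmtd2* (0.04) and *Zscan29* (0.04). The closest gene was *Epn2* (0.03) for *Igf2*, *Slc43a3* (0.03) for *Igfbp2*, *Ebf1* (0.05) for *Igfbp3* and *Baiap3* (0.06) for *Igfbp5*. Among the members themselves *Igf2* and *Igfbp3* were closest at 0.29, *Igfbp6* and *Igfbp7* stood at 0.54, and *Igf1r* and *Igfbp6* were farthest apart at 3.20. Distances were not scaled by range, so genes that changed little lie close to each other. The log2 CPM range was 0.39 for *Igf2* and 0.76 for *Igfbp3*, against 2.78 for *Igfbp6* and 2.15 for *Igfbp7*. The distances rest on 4 libraries and describe the patterns only.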

How the data were processed

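RNA was sequenced from ILC2s sorted from mouse lungs, with 1 library in each of 4 groups taken from the sample labels, so no replicate error could be computed. The authors deposited raw counts, as unnormalized whole read numbers for each Ensembl gene, from libraries made with a SMARTER mRNA-Seq kit. The aligner, counting tool, strand setting, genome build and annotation are not given in the sources used here. GENCODE M21, which holds 49056 of the 49315 gene identifiers, gave GRCm38 positions, exon lengths and GC contents, and 174 rows had no symbol. No other per-sample column was left out.

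Counts were scaled with TMM factors (1.08, 1.27, 0.895 and 0.816 in the group order of the report) from edgeR 4.0.16 in R 4.3.3. Log2 ratios used a prior count of 2 and genes with at least 1 CPM in at least 1 library. TPM used the union of exons. Intervals are exact Clopper-Pearson intervals at 95% of the reads of 2 libraries, and those of a difference of ratios come from the sum of reciprocal counts. PCR copies are not separate molecules, so the intervals and the 3-read floor describe counting error alone. The correction for GC content and length was a loess curve (span 0.3) fitted on genes with a mean log2 CPM of at least 2. Alternatives were DESeq2 1.42.0 size factors, total counts alone, upper-quartile factors, TMM with immunoglobulin genes removed, a prior count of 0.5 or 10, all genes with a read, genes with 10 or more counts in each library, thresholds of 4-fold and 1.5-fold, and the longest transcript as gene length. The steps were tested on simulated data.

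The genes named are the 9 members, *Hps1*, the listed IGF axis and marker genes, and the 3 genes nearest in profile to a member among those with a mean of at least 5 CPM. Members and lists were chosen with earlier results of these data known. A few listed marker genes were not analysed here, and a few genes that the rule names are not reported here. Promoters came from RefSeq (GRCm38.p6).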

Additional observations from a re-analysis of the deposited data

Results flagged for a closer look

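*Igfbp5* moved in opposite directions with bleomycin in the 2 genotypes. Its log2 ratio of bleomycin to PBS was -0.27 in WT (28.5 against 34.5 CPM) and 0.24 in Hps1-/- (57.3 against 48.4 CPM), both within 2-fold. The difference was not tested, since each group had 1 library. With total counts alone the Hps1-/- value was -0.40, the same direction as in WT.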

How the results depend on the processing

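Of 45 member ratios, 16 were past 2-fold, 14 of those kept their direction under all 9 settings and 5 stayed past 2-fold under all. These 5 were *Igfbp6* in BLEO-HPS1 vs BLEO-WT (1.34 to 2.24) and vs PBS-HPS1 (1.38 to 2.61), *Igfbp4* in BLEO-WT vs PBS-WT (1.04 to 1.31) and BLEO-HPS1 vs PBS-HPS1 (1.88 to 2.53), and *Igf1* in BLEO-WT vs PBS-WT (1.17 to 2.34). Correction for GC content and length took the members past 2-fold from 4 to 2 in BLEO-HPS1 vs BLEO-WT, from 6 to 3 in BLEO-HPS1 vs PBS-HPS1 and from 3 to 1 in the difference of bleomycin ratios. Over all genes the share past 2-fold went from 17.0% to 9.90%, from 45.9% to 26.2% and from 27.5% to 16.4% in the same order. The correction turned *Igf1r* to 0.26 and *Igfbp2* to -0.06 in BLEO-HPS1 vs PBS-HPS1. A 4-fold threshold left 1 member in BLEO-HPS1 vs BLEO-WT, 0 in BLEO-WT vs PBS-WT, 3 in BLEO-HPS1 vs PBS-HPS1 and 0 in the difference. The shares of all genes past 4-fold were 1.91%, 2.96%, 9.87% and 3.81% in that order. A 1.5-fold threshold gave 5 members in BLEO-WT vs PBS-WT, where 30.3% of all genes were past it. Total counts alone ended the calls of *Igfbp2* with bleomycin in both genotypes, of *Igf1* in BLEO-HPS1 vs PBS-HPS1 (0.68), and of *Igfbp4* and *Igfbp7* in the difference. No paired analysis was possible because each group had 1 library. At this depth the rarest member had 206 reads, and the spread between mice is unknown. The cause of these shifts was not tested.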
